A study of Mus musculus with 6 samples.

Results

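10 genes of the mammalian circadian clock were examined in abdominal adipose tissue of mice after intestinal bypass surgery, namely the activators Arntl, Clock and Npas2, the repressors Per1, Per2, Per3 and Cry1, the repressors Bhlhe40 and Bhlhe41, and the output factor Dbp. They were taken as every non-control array probe whose gene name in the scanner files is one of these 10 symbols, which gave 15 probes of 150305 and 10 of the 18448 named genes with a tested probe. Of the 10 genes, 6 had 1 probe, 3 had 2 probes and 1 (Clock) had 3. RNA was measured on 6 one-colour arrays, 3 labelled DJB and 3 labelled Sham. The DJB mice had a duodenal-jejunal bypass, a rerouting of the small intestine with a biliopancreatic limb of 5 cm and a Roux limb of 4 cm. The Sham mice had the same incision and cuts, and their intestine was sewn back in place. All were C57BL/6 mice whose high-fat diet began at 6 weeks of age and had run for 12 weeks at surgery, by which time the labels call them diabetic, and buprenorphine is named with the operation. The labels name no depot within the abdomen, no interval between surgery and tissue collection and no hour of collection in either group. Nor do they tie each array to its own mouse, so p-values measure the spread between these arrays, which may be technical.

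The clock is a feedback loop of transcription that runs in nearly every cell, adipocytes included. ARNTL (also called BMAL1), paired with CLOCK or NPAS2, binds E-boxes and switches on the Per and Cry genes, whose proteins enter the nucleus and inhibit that pair. A second loop sets the level of Arntl through the repressors NR1D1 and NR1D2 (REV-ERB). BHLHE40 and BHLHE41 (DEC1 and DEC2) compete for the same E-boxes, and DBP carries the rhythm to other genes through D-boxes. In adipose tissue most of these genes cycle over the day, so tissue taken at a given hour samples 1 phase of each. The labels do not say whether all arrays share an hour.

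The promoters of the genes are shown first because the loop acts through E-boxes and D-boxes, which only some of the windows held. The window runs from 250 bases before to 50 bases after the transcription start and comes from RefSeq on GRCm38.p6. It was found for all of the genes but Per2 and Bhlhe40, 8 of 10. The palindromic E-box CACGTG lay in the windows of 3 of these 8 genes, Bhlhe41, Cry1 and Per1, and in those of 8.09% of the 27025 genes of the table. The D-box TTANGTAA lay in the window of Per3 alone of the 8, and in 2.72% of all genes. Some genes, Per1 among them, have more than 1 window, and a gene was counted if any of its windows held the motif. The E-box of Per1 lay in the window printed below and not in its other window. Both strands were searched for each motif, and a match describes letters, not binding. The 250 bases upstream of the start are printed 5′ to 3′ on the gene's strand, with the E-box or D-box in capitals.
Bhlhe41, chr6:145865421-145865670, minus strand: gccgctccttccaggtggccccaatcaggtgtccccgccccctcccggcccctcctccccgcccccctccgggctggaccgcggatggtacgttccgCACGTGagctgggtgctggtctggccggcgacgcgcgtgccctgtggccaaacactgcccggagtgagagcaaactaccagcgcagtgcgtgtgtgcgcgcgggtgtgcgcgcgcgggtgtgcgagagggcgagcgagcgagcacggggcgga
Cry1, chr10:85185055-85185304, minus strand: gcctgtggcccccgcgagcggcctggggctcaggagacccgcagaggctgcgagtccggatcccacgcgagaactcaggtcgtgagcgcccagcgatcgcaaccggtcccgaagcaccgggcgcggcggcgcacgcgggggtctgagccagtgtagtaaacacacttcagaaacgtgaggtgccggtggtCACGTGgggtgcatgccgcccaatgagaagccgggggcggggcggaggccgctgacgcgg
Per1, chr11:69098699-69098948, plus strand: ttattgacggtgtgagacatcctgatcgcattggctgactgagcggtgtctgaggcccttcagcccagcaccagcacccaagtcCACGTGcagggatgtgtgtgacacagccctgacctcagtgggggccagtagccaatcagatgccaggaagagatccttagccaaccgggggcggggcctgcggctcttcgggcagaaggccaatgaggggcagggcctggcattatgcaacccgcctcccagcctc
Per3, chr4:151044666-151044915, minus strand: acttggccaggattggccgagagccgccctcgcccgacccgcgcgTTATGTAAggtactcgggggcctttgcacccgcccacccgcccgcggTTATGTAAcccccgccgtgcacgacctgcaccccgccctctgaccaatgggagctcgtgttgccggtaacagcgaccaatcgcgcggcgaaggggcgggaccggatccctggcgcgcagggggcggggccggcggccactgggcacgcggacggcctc
The E-box of Bhlhe41 began at position -153, that of Cry1 at -60 and that of Per1 at -166 from the start. Per3 held its D-box in 2 copies, at -205 and -158.

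All 15 probes were well above background on all 6 arrays. By these symbol-named probes, 2 of the 10 genes rose in DJB against Sham tissue (Bhlhe41 and Cry1, both repressors) and 0 fell, by limma with Benjamini-Hochberg adjustment over the 99436 probes tested and a threshold of 0.05. Each gene stands here by the brightest of its symbol-named probes, and levels are log2 signals minus the array's 75th percentile. Over all 16166 genes taken in that way, 7.02% were called, 2.12% higher and 4.9% lower. Per1, Per2 and Bhlhe40 also had every DJB array above every Sham array, without passing the test. In all, 5 of the 10 genes had groups that did not overlap, all higher in DJB, against 45.2% of those genes in either direction, 25.5% higher and 19.7% lower. The median difference over the 10 genes was 0.36, beside 0.05 over those genes.

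The choice of probe decides the Cry1 call. Each gene also has 1 probe that the files name only by a RefSeq accession, and for 6 of the 10 genes (Arntl, Npas2, Per1, Per2, Per3 and Cry1) that probe was brighter than the symbol-named ones. With the brightest probe of any name, a choice made after the data were seen, 1 of the 10 genes was called (Bhlhe41). By that choice 3 had groups that did not overlap (Bhlhe41, Bhlhe40 and Per1) and the median difference was 0.27. Over all 18448 genes taken in the same way, 7.53% were called, 42% had groups that did not overlap and the median was 0.0037. By the symbol-named probes, neither Bhlhe41 nor Cry1 passed when Sham-1, Sham-2, DJB-1 or DJB-2 was left out. Bhlhe41 alone passed when Sham-3 or DJB-3 was left out. With the slide as a block, the adjusted p was 0.05003 for Bhlhe41 and 0.0785 for Cry1.

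**Figure D1:**
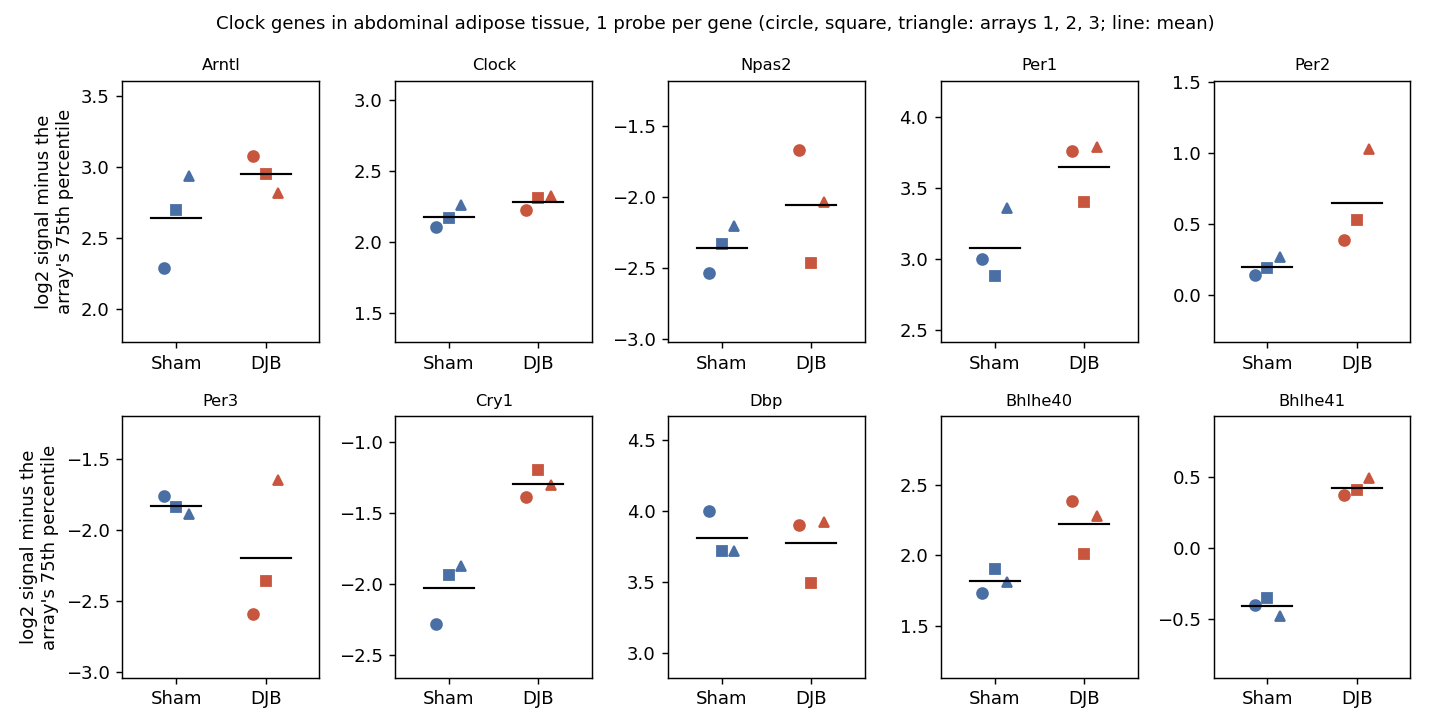
Level of each of the 10 clock genes on each array, as log2 signal minus the array's 75th percentile (y axis, a separate range per panel), for Sham and DJB (x axis), with 1 point per array and a line at the mean. Bhlhe41, Cry1, Per1, Per2 and Bhlhe40 have all 3 DJB points above all 3 Sham points, and the groups overlap in the other 5 panels.

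Bhlhe41 encodes a repressor that competes with the CLOCK pair at E-boxes and is itself switched on by it. Its brighter probe, at chr6:145811275-145811334 of mm9 on the minus strand, read -0.40, -0.35 and -0.48 in Sham and 0.37, 0.41 and 0.50 in DJB. The 3 DJB arrays lay above the 3 Sham arrays with a gap wider than the spread inside either group. The difference was 0.84 (SE 0.10, 95% interval 0.58 to 1.09), or 1.78-fold, with an adjusted p of 0.0241. The groups also stood apart before any scaling between arrays, with processed signals of 132 to 139 in Sham and 186 to 214 in DJB. A larger absolute difference was found for 15.8% of the 16166 genes.

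The second Bhlhe41 probe, chr6:145812686-145812745 of mm9 on the minus strand, gave -2.74, -2.73 and -3.23 in Sham and -2.04, -2.27 and -1.90 in DJB. Here too the groups did not overlap. Its difference of 0.83 (SE 0.18) was of the size seen with the first probe, and its adjusted p was 0.0569. Another probe of the gene, named in the files only by a RefSeq accession, lay 0.46 higher (SE 0.13, adjusted p 0.0913), again without overlap. Within slide 1 and slide 2 the brighter probe differed by 0.83 and 0.85. Slide 2 held only Sham-2 and DJB-3, so every difference within slide 2 is that of 1 array from 1 array.

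Cry1 encodes the strongest of the repressors that bind the CLOCK pair. The brighter of its symbol-named probes, at chr10:84606495-84606554 of mm9 on the minus strand, read -2.28, -1.94 and -1.88 in Sham and -1.39, -1.20 and -1.31 in DJB. All DJB arrays lay above all Sham arrays, and this also held before scaling. The difference was 0.73 (SE 0.15, 95% interval 0.38 to 1.09), or 1.66-fold, with an adjusted p of 0.0480. A larger absolute difference was found for 18.9% of the 16166 genes.

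The other Cry1 probe read -2.78, -2.85 and -2.24 in Sham and -1.94, -1.94 and -2.34 in DJB. Its groups overlapped through DJB-3 and Sham-3. The difference was 0.55 (SE 0.21, adjusted p 0.156). The accession-named Cry1 probe was far brighter than both, reading 4.01, 3.90 and 4.04 in Sham and 4.51, 4.48 and 3.92 in DJB. Its groups overlapped, again through DJB-3, and it differed by 0.32 (SE 0.18, adjusted p 0.304). The mean of the tested probes differed by 0.53 (adjusted p 0.0652), so the call rests on 1 of 3 probes. With normexp background correction the called probe differed by 0.47 (adjusted p 0.0163) and the other symbol-named probe by 0.33 (adjusted p 0.0385). Both passed under that setting, which called 12.0% of all tested probes, beside 5% as reported.

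The sequences of 3 probes are printed because they are the second Bhlhe41 probe, the Cry1 probe that was called and the Per2 probe with the wider gap. They are given 5′ to 3′ as in the scanner files, with mm9 coordinates.
Bhlhe41, chr6:145812686-145812745, minus strand: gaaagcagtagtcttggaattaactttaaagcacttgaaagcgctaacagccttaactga
Cry1, chr10:84606495-84606554, minus strand: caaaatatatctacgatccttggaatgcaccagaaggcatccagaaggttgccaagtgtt
Per2, chr1:93336538-93336597, minus strand: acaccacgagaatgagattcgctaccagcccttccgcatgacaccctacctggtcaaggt

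Per1 and Per2 encode the period proteins, which pair with the cryptochromes and whose genes respond quickly to hormones and feeding. Per1 read 3.005, 2.88 and 3.36 in Sham and 3.76, 3.40 and 3.79 in DJB. The groups did not overlap after scaling, although Sham-3 lay only just below DJB-2. The difference was 0.57 (SE 0.18, 95% interval 0.13 to 1.01) with an adjusted p of 0.109. It was 0.40 within slide 1 and 0.91 within slide 2. The accession-named Per1 probe lay 0.46 higher (SE 0.13, adjusted p 0.0869), also without overlap.

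Per2 read 0.14, 0.19 and 0.26 in Sham and 0.39, 0.53 and 1.03 in DJB with the brighter of its symbol-named probes. The groups did not overlap, and DJB-3 stood highest. The difference was 0.45 (SE 0.18, 95% interval 0.00 to 0.90, adjusted p 0.176), 0.25 within slide 1, 0.84 within slide 2 and 0.26 without DJB-3. The second Per2 probe, whose sequence is printed above, read -2.05, -1.65 and -1.59 in Sham and -1.23, -1.03 and -1.02 in DJB. Its gap was wider and also held before scaling, with a difference of 0.67 (SE 0.16, adjusted p 0.0638). The accession-named Per2 probe, the brightest of the 3, had overlapping groups and differed by 0.29 (adjusted p 0.377).

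Per3, a period gene that is not needed for the core rhythm, was the only gene of the 10 besides Dbp with a negative difference. It read -1.76, -1.84 and -1.89 on the Sham arrays, which lay close together. On the DJB arrays it read -2.59, -2.36 and -1.65, so that 2 arrays lay below all Sham arrays and DJB-3 above them. The difference was -0.37 (SE 0.25, 95% interval -0.97 to 0.23, adjusted p 0.374). It was -0.64 without DJB-3 (adjusted p 0.0603), -0.17 without DJB-1 and -0.06 with normexp background correction. Its sign differed between slides, at -0.65 within slide 1 and 0.19 within slide 2, where DJB-3 is the only DJB array. The accession-named Per3 probe read 1.89, 1.78 and 1.93 in Sham and 0.84, 1.19 and 1.80 in DJB, with the same array standing apart and a difference of -0.59 (adjusted p 0.180).

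None of the 3 activators passed the test. Arntl, the partner without which the rhythm is lost, read 2.29, 2.70 and 2.94 in Sham and 3.08, 2.95 and 2.82 in DJB. The groups overlapped, since Sham-3 lay above DJB-3, and the difference was 0.31 (SE 0.19, 95% interval -0.15 to 0.76, adjusted p 0.334), or 0.13 without Sham-1. Npas2, which can stand in for Clock, read -2.54, -2.33 and -2.20 in Sham and -1.67, -2.47 and -2.04 in DJB. DJB-2 lay inside the Sham range, and the difference was 0.30 (SE 0.22, adjusted p 0.419), or 0.10 without DJB-1 and 0.50 without DJB-2.

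Clock, the partner of ARNTL, had the smallest difference of the activators. Its brightest probe read 2.11, 2.17 and 2.26 in Sham and 2.22, 2.31 and 2.32 in DJB, a difference of 0.11 (SE 0.10, 95% interval -0.15 to 0.36, adjusted p 0.546). Its other probes differed by 0.11 and 0.08. The accession-named Clock probe went the other way at -0.39 (SE 0.15, adjusted p 0.165), with every DJB array below every Sham array, so the probes of Clock disagreed in direction.

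Bhlhe40, the paralogue of Bhlhe41 that also responds to hypoxia and hormones, read 1.74, 1.91 and 1.81 in Sham and 2.38, 2.01 and 2.28 in DJB. The groups did not overlap after scaling and overlapped before it. The difference was 0.41 (SE 0.14, 95% interval 0.08 to 0.74, adjusted p 0.121), while the accession-named probe differed by 0.08 (adjusted p 0.823).

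Dbp, a direct E-box target that peaks sharply in the day, read 4.00, 3.72 and 3.72 in Sham and 3.90, 3.50 and 3.93 in DJB. The groups overlapped widely and the difference was -0.04 (SE 0.16, 95% interval -0.44 to 0.36, adjusted p 0.906). Its sign turned when arrays were scaled to their median (0.07), and it was -0.16 within slide 1 and 0.21 within slide 2.

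Probe by probe, 2 of the 15 were called, beside 7.13% of RefSeq probes (over all probes 1.84% were called higher and 3.15% lower), and 7 had groups that did not overlap, all higher in DJB, beside 43.8% of RefSeq probes in either direction. Before scaling between arrays, 4 of these 7 were still apart, both Bhlhe41 probes, 1 of Cry1 and 1 of Per2. Of the 10 accession-named probes, which fall outside the choice by gene name, 0 were called and 9 had the sign of the symbol-named probe that stands for the gene. The exception was Clock.

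**Figure D2:**
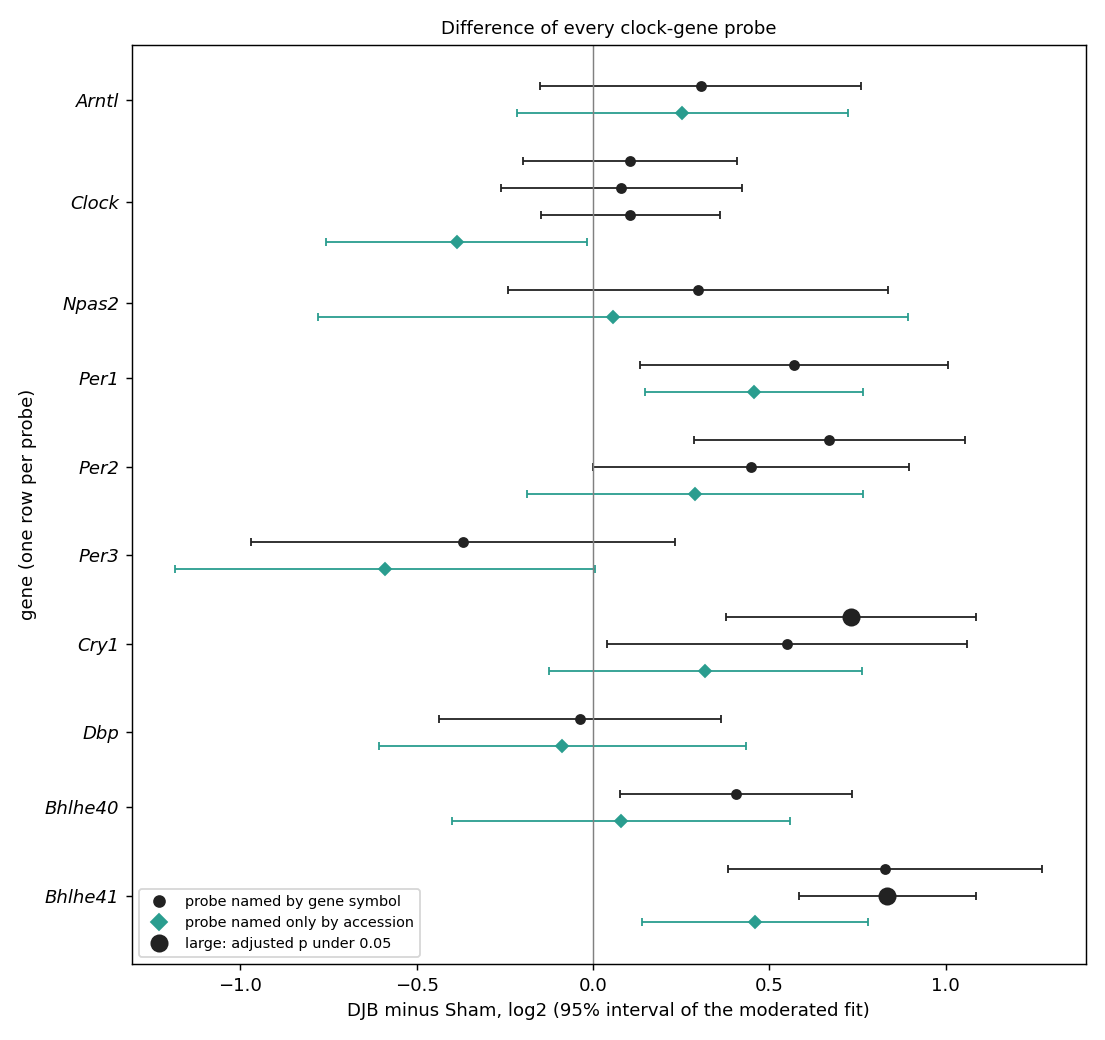
DJB minus Sham difference in log2 level (x axis) for every probe of the 10 clock genes (y axis), with 95% intervals from limma and larger points for called probes, for probes named by symbol and probes named only by accession. Both symbol-named Bhlhe41 probes lie near 0.83, while for Cry1 they lie at 0.73 and 0.55, and the accession-named Clock probe lies below 0 while the others lie above it.

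The array also holds probes named by a genomic interval, read as GRCm38 because 98.2% of these 37852 intervals fell within annotated genes of that build. Of these, 18 lay in the loci of the 10 genes, all were tested and 0 were called, beside 3.84% of all interval-named probes. Groups did not overlap for 4 of them, beside 39.3% of all. The Cry1 locus had 1, at chr10:85146344-85148798, with a difference of 0.65 (SE 0.16, adjusted p 0.0667) and no overlap. The Per1 locus had 5, which differed by 0.16 to 0.50, and 3 of them were higher without overlap. That with the largest difference, 0.50, was among these 3 and lay on the minus strand, opposite to Per1 and the rest. The 8 in Npas2 differed by -0.11 to 0.24. The median of the 18 was 0.17, beside 0.15 over all interval-named probes.

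Beyond the 10 genes, the other genes of the pathway are given from a list of loop regulators, bZIP factors, modifiers and output genes. Of 36 tested, 1 rose (Wee1) and 2 fell (Prkaa2 and Fbxl21). Over all 18448 genes, each by its brightest probe of any name as for these 36, 7.53% were called, 1.43% higher and 6.1% lower. There were 9 higher and 7 lower without overlap, beside 42% of all genes (19.8% higher and 22.2% lower), and the median was 0.09, beside 0.0037. By role, 0 of 10 loop regulators and 0 of 3 bZIP factors passed the test, 2 of 14 modifiers fell, and 1 of 9 output genes rose. At an unadjusted p under 0.05 there were 3, 1, 4 and 4, or 12 of the 36, beside 33.5% of all genes.

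Wee1, a cell cycle kinase gene switched on through E-boxes, read 2.99, 3.07 and 3.26 in Sham and 4.31, 4.28 and 3.75 in DJB. All DJB arrays were higher, the difference was 1.01 (SE 0.19, adjusted p 0.0424), and both of its probes were called. Prkaa2, a catalytic subunit of the kinase AMPK that marks CRY1 for degradation, read 0.55, 0.10 and 0.16 in Sham and -1.89, -1.21 and -0.81 in DJB. All DJB arrays were lower, the difference was -1.57 (SE 0.29, adjusted p 0.0428), and both of its probes were called. The dimmer Prkaa2 probe was well above background on 3 Sham arrays but on only 1 DJB array. Its difference of -1.92 therefore rests on DJB values near background. Fbxl21, an F-box protein gene acting on cryptochromes, read -1.94, -1.86 and -1.70 in Sham and -2.40, -2.40 and -2.66 in DJB. Its difference was -0.65 (SE 0.13, adjusted p 0.0486), and 1 of 3 probes was called. It was -0.12 (adjusted p 0.208) with normexp background correction, and its call was also lost with median scaling, quantile normalization, the authors' deposited values and the mean of its probes. With the slide as a block none of these calls held (adjusted p 0.0601 for Wee1, 0.0713 for Prkaa2 and 0.0716 for Fbxl21). Leaving out any 1 of the 6 arrays also ended them, except that Wee1 and Prkaa2 were called without DJB-3.

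Among loop regulators, Nr1d1, the REV-ERB repressor of Arntl, read 4.13, 3.83 and 3.76 in Sham and 2.29, 3.37 and 3.76 in DJB. DJB-1 stood far below the others, the difference was -0.77 (SE 0.38, adjusted p 0.236), and the 4 probes ranged from -0.77 to 0.10. Without DJB-1 the difference was -0.34. Nr1d2 differed by 0.09 (adjusted p 0.696). Nr1d2, Cry2, Cipc and Tef were named after their values were seen.

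Cry2, the other cryptochrome, went opposite to Cry1 in sign. Its brightest probe read 5.39, 5.26 and 5.45 in Sham and 4.47, 5.17 and 5.00 in DJB, lower without overlap. The difference was -0.49 (SE 0.20, adjusted p 0.173), or -0.28 without DJB-1. The other Cry2 probes differed by -0.18 and -0.43, with overlapping groups. Cipc, a CLOCK-interacting repressor, read 4.99, 5.23 and 5.16 in Sham and 5.86, 5.64 and 5.53 in DJB. Its difference was 0.55 (SE 0.14, adjusted p 0.0693), and of its 4 probes, all between 0.55 and 0.98, 2 were called.

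The bZIP factors bind the same D-boxes as DBP. Hlf read 0.60, 0.24 and -0.20 in Sham and -2.02, -1.88 and -0.75 in DJB, lower without overlap, with a difference of -1.76 (SE 0.38, adjusted p 0.0552), or -1.04 and called with normexp. Tef differed by -0.15 (adjusted p 0.574). Nfil3, which opposes them at the D-box, differed by 0.62 (SE 0.30, adjusted p 0.232), or 0.95 without DJB-1. Usp2, a deubiquitinase gene that cycles strongly, read 1.61, 1.27 and 0.44 in Sham and -0.06, -0.01 and 0.31 in DJB, without overlap (adjusted p 0.0992), and was called without Sham-3 (adjusted p 0.0350). Ppara, a fatty acid sensor and clock output, differed by -1.93 (SE 0.47, adjusted p 0.0685).

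**Figure D3:**
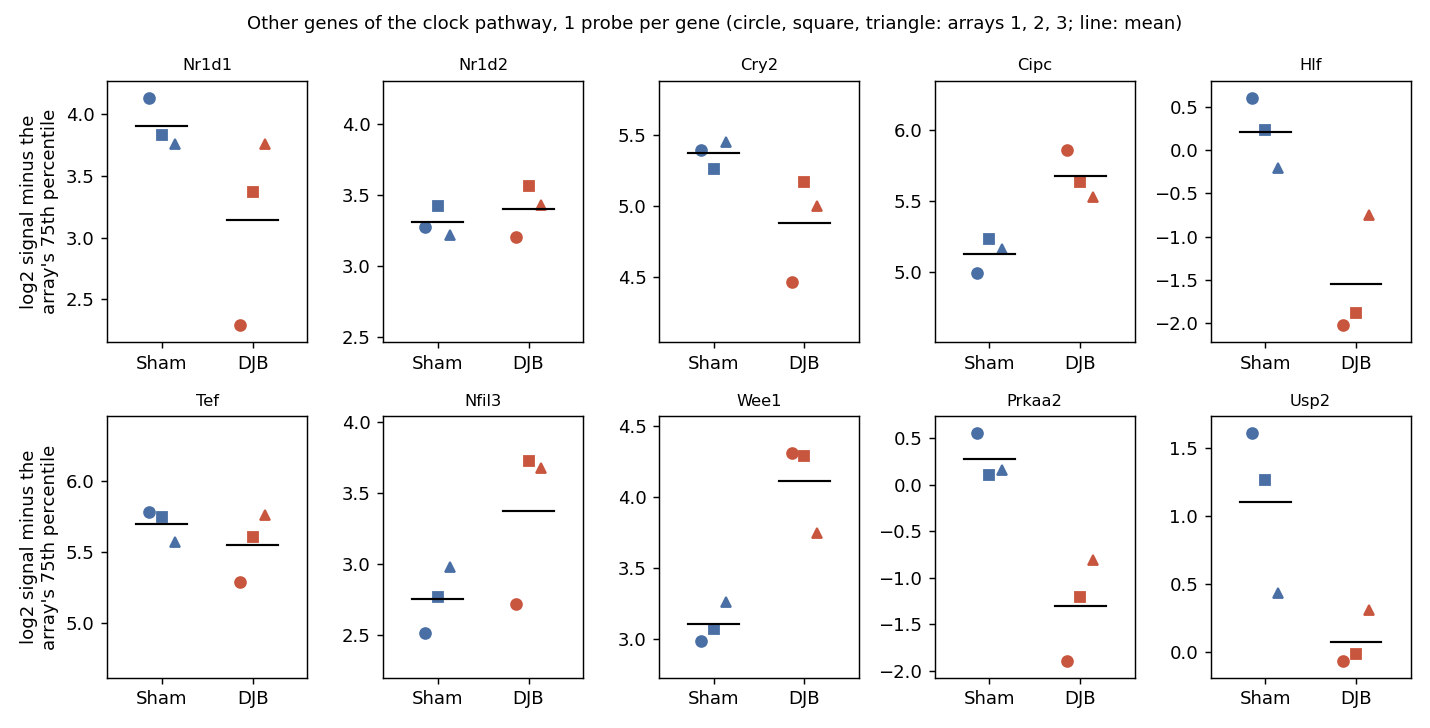
Level of 10 other clock pathway genes on each array, as log2 signal minus the array's 75th percentile (y axis, a separate range per panel), for Sham and DJB (x axis), with 1 point per array and a line at the mean. Wee1 and Cipc lie higher and Prkaa2, Hlf, Cry2 and Usp2 lower in all 3 DJB arrays, while Nr1d1, Nr1d2, Tef and Nfil3 overlap.

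Markers of several cell types moved alongside. Over all 18448 genes, 1.43% were called higher and 6.1% lower. Without overlap 19.8% were higher and 22.2% lower, and 33.5% had an unadjusted p under 0.05. The tissue's own marker genes were present, with all 11 mature adipocyte markers above background on every array, and 3 of the 11 fell in DJB (Lep, Pparg and Retn) while 9 were lower without overlap. Their mean level ran from 7.42 to 7.78 in Sham and from 5.74 to 6.97 in DJB. Among the 11, only Fabp4 had a positive difference (0.08). Of 10 macrophage markers 2 rose (Gpnmb and Itgam), with mean levels of 7.07 to 7.45 in Sham and 7.74 to 7.82 in DJB. The macrophage differences were positive for 9, of which 5 were without overlap, and negative for Cd163 (-0.56). Of 9 skeletal muscle markers 5 fell, while 4 differences were positive, 2 of them without overlap (Ckm and Tnnt3). Of 5 liver markers 2 fell, and 2 differences were positive (Apoa1 and Ttr). Of 5 endothelial and 5 mesothelial markers 1 each fell. All 5 endothelial differences were negative, 4 of them without overlap, with a median of -0.75. All 5 mesothelial differences were negative, 2 of them without overlap, with a median of -1.49. Of 6 T and B cell and 5 fibroblast markers 0 were called (4 and 2 at an unadjusted p under 0.05). In bulk tissue, fewer cells of a type and less RNA per cell cannot be told apart, and the part of these shifts in the clock gene differences was not tested.

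Per1 and Per2 also respond to glucocorticoids and to rapid stimuli, and both gene groups are given beside them. Of 10 glucocorticoid response genes 1 rose (Dusp1, difference 1.35, adjusted p 0.0395) and 0 fell, with a median of 0.26. Of their differences 6 were positive and 4 negative, and Hsd11b1 was lower without overlap (-1.16, adjusted p 0.153). Of 12 immediate early genes 2 rose (Junb by 0.88, adjusted p 0.0481, and Zfp36 by 0.80, adjusted p 0.0491) and 0 fell. Of the 12 differences 10 were positive, and the median was 0.47. Over all 18448 genes 1.43% rose and 6.1% fell, with a median of 0.0037. The part of both gene groups in the clock gene values was not tested.

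The genes most like Bhlhe41 over the 6 arrays, by Pearson correlation of their levels, were Mydgf (r = 0.998), Rasl2-9 (0.996) and Rpl17 (0.996), and 304 genes had an r over 0.95. Those most like Per3 were Fh1 (0.991), Klhdc1 (0.988) and Ly6e (0.987), with 49 genes over 0.95. With 6 points that share the 2 groups, these values are descriptions only.

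**Figure D4:**
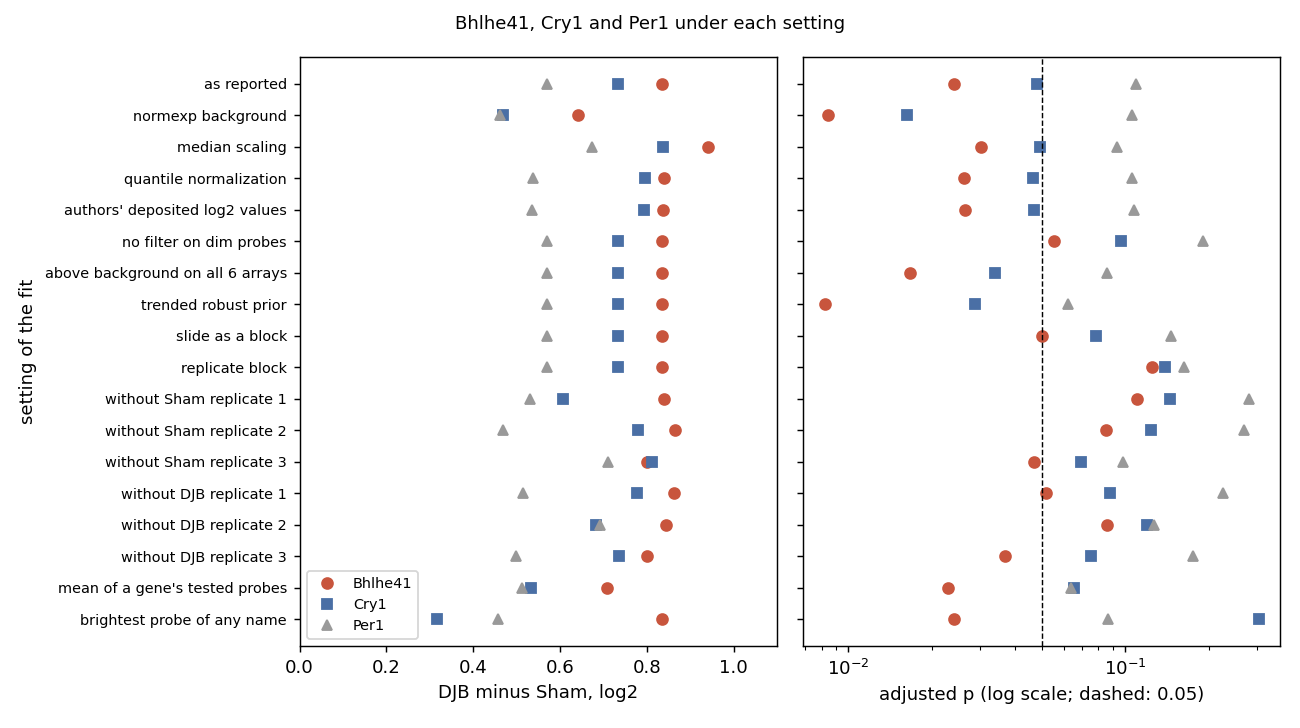
DJB minus Sham difference in log2 level (left, x axis) and adjusted p on a log axis (right, dashed line at 0.05) for Bhlhe41, Cry1 and Per1 under each setting of the fit (y axis). Bhlhe41 lies between 0.64 and 0.94 and Cry1 between 0.32 and 0.84 in every row, while both move across the dashed line.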

How the data were processed

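Per the labels' protocols, total RNA was amplified and labelled with cyanine 3 by a whole-transcript kit. Per the file headers, the arrays were quantified with Agilent Feature Extraction 12.0.3.1 (protocol GE1_1200_Jun14, genome build mm9). The deposited scanner files give for each spot a processed intensity, background-subtracted and on a linear scale, with mean and background intensity and flags. A second deposited table holds log2 values from the authors, whose columns each correlated best with the same array and had medians of 4.546 to 4.558, and it served as an alternative. The header announces 172336 features, and 17057 of them were not analysed here. The submitters' processing notes name limma without a version.

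The log2 processed intensity was scaled by subtracting each array's 75th percentile over 150305 non-control probes. That percentile was a signal of 176 to 184 on Sham arrays and 132 to 165 on DJB arrays, and 64.7% to 68.8% and 62.6% to 64.9% of probes were well above background. Pearson correlations were 0.973 to 0.989 within groups and 0.944 to 0.980 between them. Spots with an outlier flag were left out. Probes well above background on at least 3 of 6 arrays were fitted in R 4.3.3 with limma 3.58.1 (lmFit and eBayes, DJB minus Sham, intervals of 95%). Of 99436 probes tested, 4967 (5%) were called, 1830 higher and 3137 lower. The scripts were tested on simulated data. For single values, an exact permutation test of 3 arrays against 3 cannot go below p = 0.1, and the number of arrays limits the precision.

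RefSeq probes were named by accession through RefSeq's gene table (48048 of 48467 matched). A gene is represented by its tested RefSeq probe of highest mean signal, for the 10 clock genes among the probes named by symbol, as their choice requires, and for all other genes among all its probes. Named are all 10 genes, then of each other clock list the genes called and the 2 of largest absolute difference, and for likeness the 3 genes of highest correlation. 1 gene that the rule names is not reported here. The 10 genes and all lists were chosen with earlier results of these data known. Slide 1 held Sham-1, Sham-3, DJB-1 and DJB-2, and slide 2 held Sham-2 and DJB-3. The alternatives changed the background correction, scaling, filter, variance prior, slide block, replicate block, probe choice and each array in turn.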

Additional observations from a re-analysis of the deposited data

How the results depend on the processing

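The number of called probes, 4967 as reported, was 11904 with normexp background correction, 10610 with a trended robust prior, 7547 with probes above background on all 6 arrays, 649 with no filter on dim probes, 707 with the slide as a block and 119 to 3971 when 1 array was left out. Scaling to the median gave 1906 higher and 2026 lower calls in place of 1830 and 3137, normexp gave 7005 and 4899, and median scaling moved the median difference of all probes from 0.08 to 0.19. Of the 10 clock genes, 2 were called as reported and with normexp, median scaling, quantile normalization, the authors' deposited values, probes above background on all 6 arrays and a trended prior. The count was 1 with the mean of a gene's tested probes and with the brightest probe of any name. The latter was an alternative chosen after seeing the data. The count was 0 with no filter or with the slide as a block (4 and 5 at an unadjusted p under 0.05). Without 1 array it was 0 to 1. Over all probes, 28983 of 150293 with no filter and 27378 of 99436 with the slide as a block had an unadjusted p under 0.05. Of the other clock genes, 3 were called as reported, 5 with normexp (Cipc, Hlf, Ppara, Prkaa2 and Wee1, without Fbxl21), with probes above background on all 6 arrays, with a trended prior and with the mean of tested probes, 2 (Prkaa2 and Wee1) with median scaling, quantile normalization and the authors' values, 0 with no filter or the slide as a block (11 and 12 unadjusted), and 0 to 3 without 1 array.

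Correlations of same-numbered deviations were -0.18, -0.12 and -0.29. With 3 arrays per group they cannot settle whether the replicate numbers pair the arrays. With the replicate block, 0 probes were called, 0 of the 10 clock genes and 0 of the 36 other clock genes. At an unadjusted p under 0.05 there were 21439 of the 99436 probes, 3 of the 10 genes and 10 of the 36. The sign turned for Dbp with median scaling (0.0694), without Sham-1 and without DJB-2 (-0.112 to 0.103 over the arrays left out), for Clock with the mean of tested probes (-0.0238) and for Tef with that mean (0.0760). Within slide 2 it turned for Per3 (0.19) and Dbp (0.21). The mean for Clock includes the accession-named probe, and the cause of the other changes was not tested.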
